A study of Mus musculus with 12 samples.

Results

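The contacts described here join the Shh regulatory domain with the sequence beyond its Lmbr1 side. A pair of restriction fragments was a member when 1 midpoint lay at mm9 chr5:28780000-29720000, the other lay above 29720000, the fragments were more than 50 kb apart and the pair was above 0 in any library. Of 28980 fragment pairs above 0 in the measured region, 6386 met this rule. They join 189 fragments of the domain with 68 fragments of the flank, over distances from 51.8 to 1222 kb (median 601 kb). No measured value beyond being above 0 was used to choose them.

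The product of Shh is a secreted morphogen of neural tube and limb development. Its enhancers are spread over a long gene-poor interval, from SBE6, SBE4 and SBE2, which act in the developing nervous system, to the limb enhancer ZRS, which lies in an intron of Lmbr1. Such intervals are often topologically associating domains, whose sequences contact each other more than they contact sequences beyond the edge. Beyond the Lmbr1 side lie Nom1, which encodes a nucleolar protein, Mnx1, which encodes a homeobox factor of motor neurons, and Ube3c, which encodes a ubiquitin ligase.

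Contacts were read by 5C (chromosome conformation capture carbon copy), in which oligonucleotides placed at HindIII fragment ends are joined only where 2 fragments were ligated. The groups were ESC, undifferentiated 46c mouse embryonic stem cells with 2 biological replicates, and NPC, neural progenitors made from them over 7 days in N2B27 medium, with 2. The other 3 groups are named tSBE6-Vp64 (1 replicate), tSBE2-Vp64 (1) and tSBE(6+2-Vp64) (2). As background, Vp64 is a transcriptional activation domain, here named together with the enhancers SBE6, SBE2 or both. A group carrying a targeting protein without the activator was not analysed here, so each of these 3 was compared with ESC, and targeting and activation cannot be told apart. All contacts are averages over cell populations.

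Of 12 deposited matrices, 11 were distinct: the first technical replicate of NPC replicate 1 and the second of NPC replicate 2 differed by at most 8.26e-06 after scaling, and were counted once, in NPC replicate 1. Values are given as signal, the share of a library's total per 1000. If the smallest value of each library is worth 1 read, the libraries hold from 1039638 to 50430529 reads. The fragments were sorted into 2 classes from the values themselves, with the ends of a pair above 0 put in opposite classes. The oligonucleotide design was not read. The classes held 176 and 165 fragments, and 0 pairs within a class were above 0. Of the 12813 crossing fragment pairs over 50 kb apart, 6405 join the classes, and 19 of those were at 0 in every library. The labels do not say that biological replicates were separate cultures, so p-values measure the spread between these samples.

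The strongest crossing contact joined the windows of Lmbr1 and Mnx1. The promoters of both genes and of Nom1, which lies between them, are shown as background. They were not placed at the ends of that contact. Each is 300 bases of RefSeq sequence (build GRCm38.p6, not the mm9 build of the contact data), written 5′ to 3′ on the strand of the gene, with CpG dinucleotides in capitals.
Lmbr1: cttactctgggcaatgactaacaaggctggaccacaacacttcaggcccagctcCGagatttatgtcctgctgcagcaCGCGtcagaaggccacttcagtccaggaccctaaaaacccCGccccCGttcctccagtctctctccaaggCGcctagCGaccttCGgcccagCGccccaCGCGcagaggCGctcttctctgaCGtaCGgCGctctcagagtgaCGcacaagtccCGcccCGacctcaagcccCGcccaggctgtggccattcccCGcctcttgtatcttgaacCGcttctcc
Mnx1: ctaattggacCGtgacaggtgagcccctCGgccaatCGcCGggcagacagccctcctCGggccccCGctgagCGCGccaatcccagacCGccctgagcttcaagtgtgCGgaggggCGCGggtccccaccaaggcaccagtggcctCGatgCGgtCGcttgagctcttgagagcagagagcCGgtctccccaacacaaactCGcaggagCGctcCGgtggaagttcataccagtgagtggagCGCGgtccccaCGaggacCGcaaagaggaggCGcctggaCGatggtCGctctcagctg
Nom1: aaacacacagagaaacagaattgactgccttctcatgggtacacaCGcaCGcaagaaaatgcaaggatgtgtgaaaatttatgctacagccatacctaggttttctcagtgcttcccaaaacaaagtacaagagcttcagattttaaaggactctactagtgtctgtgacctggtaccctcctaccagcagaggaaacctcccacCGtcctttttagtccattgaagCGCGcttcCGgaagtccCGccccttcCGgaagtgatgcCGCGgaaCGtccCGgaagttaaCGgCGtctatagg
They lie at chr5:29378341-29378640 (minus strand) for Lmbr1, chr5:29478421-29478720 (minus strand) for Mnx1 and chr5:29434417-29434716 (plus strand) for Nom1, all in GRCm38.p6. The Mnx1 promoter holds 26 CpG dinucleotides, that of Lmbr1 21 and that of Nom1 14, against a median of 7 over 32851 mouse promoters of the same length. None of the 3 holds AAGCTT, the HindIII site, which reads the same on both strands and is found in 7.45% of the promoters. Which deposited fragments hold these promoters was not determined, because the builds differ.

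Crossing pairs carried 16.0% and 23.3% of the signal over 50 kb in the ESC replicates, and 30.2% and 29.6% in NPC. The tSBE6-Vp64 replicate had 13.3%, the tSBE2-Vp64 replicate 26.8%, and the tSBE(6+2-Vp64) replicates 20.3% and 21.4%. Both NPC values and the tSBE2-Vp64 value thus lay above both ESC values, the tSBE6-Vp64 value lay below both, and tSBE(6+2-Vp64) lay between them. With the edge placed 20 kb nearer the domain, the difference of NPC from ESC given next turned, to -0.78 percentage points. The mean was 29.9% ± 0.459 (SD, n = 2) in NPC and 19.6% ± 5.16 (SD, n = 2) in ESC, a difference of 10.3 percentage points with p = 0.333 by a two-sided exact permutation test. That is the smallest p that 2 against 2, or 1 against 2, replicates allow, so none of the 12 such tests made here could pass 0.05. The differences from ESC were -6.34 for tSBE6-Vp64 (p = 0.667), 7.20 for tSBE2-Vp64 (p = 0.667) and 1.22 percentage points for tSBE(6+2-Vp64) (p = 1.00, exact permutation tests).

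Very few fragment pairs held most of this signal in some replicates and not in others. The 6 crossing pairs that exceeded 0.5% of a library held 1.38% and 49.7% of the crossing signal in ESC, and 70.8% and 70.7% in NPC. They held 14.7% in tSBE6-Vp64, 56.5% in tSBE2-Vp64, and 20.9% and 44.3% in tSBE(6+2-Vp64). The strongest pairs needed to reach 50% of the crossing signal numbered 728 in ESC replicate 1 but 6 in ESC replicate 2, 2 in each NPC replicate and 3 in tSBE2-Vp64. They numbered 524 in tSBE6-Vp64, and 694 and 13 in tSBE(6+2-Vp64), so that the replicates of ESC and of tSBE(6+2-Vp64) lay far apart while those of NPC did not. The crossing share was also taken without all 21 pairs over 50 kb apart that exceeded 0.5% of a library, crossing or not. It was then 15.8% and 17.1% in ESC, 22.8% and 21.0% in NPC, and 12.4% in tSBE6-Vp64. In tSBE2-Vp64 it was 22.8%, and in tSBE(6+2-Vp64) 19.2% and 19.7%. NPC and tSBE2-Vp64 again lay above ESC and tSBE6-Vp64 below it, and here tSBE(6+2-Vp64) lay above ESC too. The technical replicates of tSBE(6+2-Vp64) replicate 2 had 22.8% and 15.3%, the second below both ESC values. The pairs that do not cross left the total as well. With only the 6 crossing pairs left out, both NPC values lay below both ESC values and tSBE2-Vp64 between them.

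**Figure D1:**
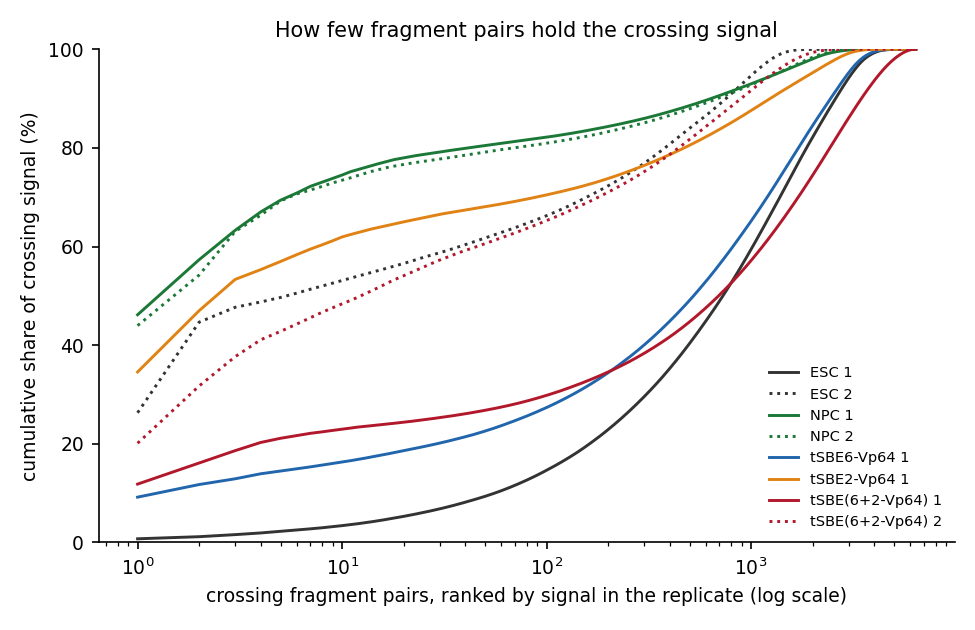
Cumulative share of the crossing signal (%) against the number of crossing fragment pairs, ranked by signal within each replicate (log axis), with 1 line per biological replicate (dotted for replicate 2). In both NPC replicates 2 pairs reach 50%, whereas ESC replicate 1 needs 728 pairs.

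How widely crossing pairs were seen also varied. The share of the 6386 pairs above 0 was 82.7% and 40.6% in ESC, 71.4% and 51.7% in NPC, 87.1% in tSBE6-Vp64, 78.6% in tSBE2-Vp64, and 99.7% and 54.0% in tSBE(6+2-Vp64). Only 881 pairs were above 0 in every biological replicate. As a description, Spearman's rho over the 6386 pairs ranged from 0.17 to 0.52 between replicates, and it was 0.17 between the ESC replicates, 0.32 between those of NPC and 0.30 between those of tSBE(6+2-Vp64). Pairs share fragments, so no test is given. Whether the rank order moves with depth was not tested.

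The question the edge poses is whether pairs that span it are weaker than pairs of equal distance on 1 side. Crossing signal was compared with pairs inside the domain (7952) in 50-kb distance classes, and the ratio was 0.564 and 0.634 in ESC, and 0.984 and 0.876 in NPC. It was 0.397 in tSBE6-Vp64, 0.967 in tSBE2-Vp64, and 0.738 and 0.758 in tSBE(6+2-Vp64). All 8 replicates lay below 1, but by library NPC replicate 1 had 0.924 and 1.03. The ESC values lay below those of NPC, tSBE2-Vp64 and tSBE(6+2-Vp64) with no overlap, and tSBE6-Vp64 lay below ESC. That holds for averages of technical replicates. The libraries of tSBE(6+2-Vp64) replicate 2 had 0.898 and 0.598, the second below ESC replicate 2. On the log2 scale the ratio differed from ESC by 0.63 in NPC, -0.59 in tSBE6-Vp64, 0.69 in tSBE2-Vp64 and 0.32 in tSBE(6+2-Vp64), each with p = 0.333 by the exact permutation test, the smallest possible. By biological replicate, the groups kept their side of ESC without the high pairs. The ratios were then 0.569 and 0.602 in ESC, 0.880 and 0.781 in NPC and 0.393 in tSBE6-Vp64. They were 0.898 in tSBE2-Vp64, and 0.759 and 0.727 in tSBE(6+2-Vp64). By library, tSBE(6+2-Vp64) replicate 2 had 0.872 and 0.565, the second below both ESC values.

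Against pairs within the flank (772), the ratio depended on the high pairs. With all pairs it was 0.582 and 1.34 in ESC, 1.86 and 1.65 in NPC, 0.661 in tSBE6-Vp64, 1.42 in tSBE2-Vp64, and 0.897 and 1.23 in tSBE(6+2-Vp64). A high pair is one above the limit in any library, and of the 6 crossing ones Shh_463 with Shh_491 and Shh_197 with Shh_504 passed it only in NPC libraries and Shh_158 with Shh_482 only in 1 library of tSBE(6+2-Vp64). Leaving them out therefore removes these groups' own highest values, and the changes below are a description of what remains. Leaving the high pairs out, it lay between 0.518 (tSBE6-Vp64) and 0.630 (ESC replicate 2) in all 8 replicates. Crossing pairs were then the weaker in 4 of 4 distance classes in every replicate, and the log2 difference of NPC from ESC went from 0.99 to -0.06. Those of tSBE2-Vp64 and tSBE(6+2-Vp64) also turned, from 0.68 to -0.07 and from 0.25 to -0.01.

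**Figure D2:**
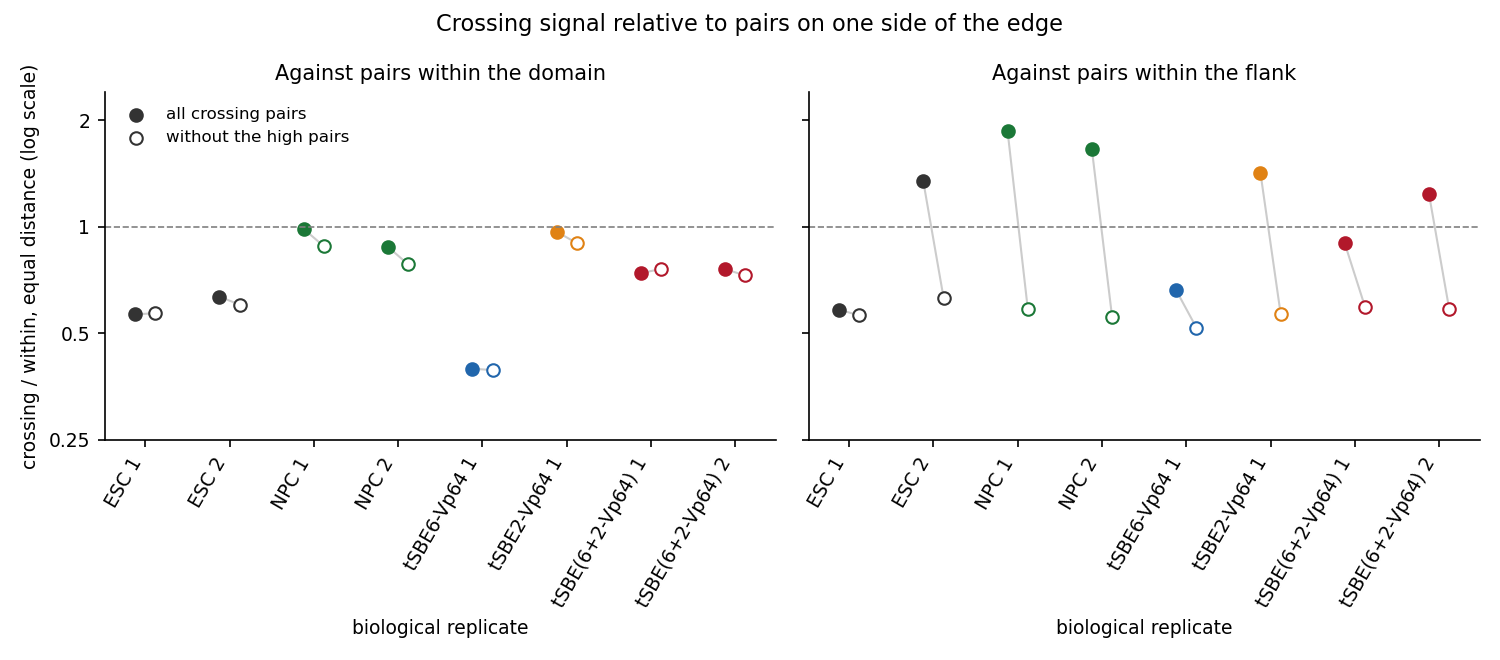
Ratio of crossing signal to signal within the domain (left) and within the flank (right) at equal distance (log axis), for each biological replicate, with all pairs (filled) and without the high pairs (open). In the left panel NPC, tSBE2-Vp64 and tSBE(6+2-Vp64) lie above ESC and tSBE6-Vp64 below it either way, and the open points of the right panel all lie between 0.518 and 0.630.

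By distance and without the high pairs, crossing signal lay below domain signal in 17 and 18 of 18 classes in ESC, and in 18 in tSBE6-Vp64. It lay below in 12 and 15 classes in NPC, 14 in tSBE2-Vp64, and 16 and 16 in tSBE(6+2-Vp64). In NPC the class that starts at 650 kb had the highest ratio, 2.45 and 1.92, and the same class was highest in tSBE2-Vp64 (2.10) and in tSBE(6+2-Vp64) replicate 2. That class includes Shh_261 with Shh_514, which is not among the high pairs, with 3.26 and 1.62 in NPC, 2.36 in tSBE2-Vp64, 0.0132 and 0.561 in ESC, 0.220 in tSBE6-Vp64, and 0.723 and 0.668 in tSBE(6+2-Vp64). It was named after its values were seen. Near the distance limit of the rule, the 9 pairs at 50 to 60 kb averaged 0.0536 and 0.0507 in ESC and 0.0145 and 0.0190 in NPC. They averaged 0.0433 in tSBE6-Vp64, 0.0186 in tSBE2-Vp64, and 0.0457 and 0.0218 in tSBE(6+2-Vp64), so both ESC values were the highest. The 7 pairs at 40 to 50 kb, outside the rule, averaged 0.0678 and 0.0382 in ESC and 0.0273 and 0.0254 in NPC. In the Vp64 groups these 7 averaged 0.0665 in tSBE6-Vp64, 0.0450 in tSBE2-Vp64, and 0.0622 and 0.0337 in tSBE(6+2-Vp64).

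**Figure D3:**
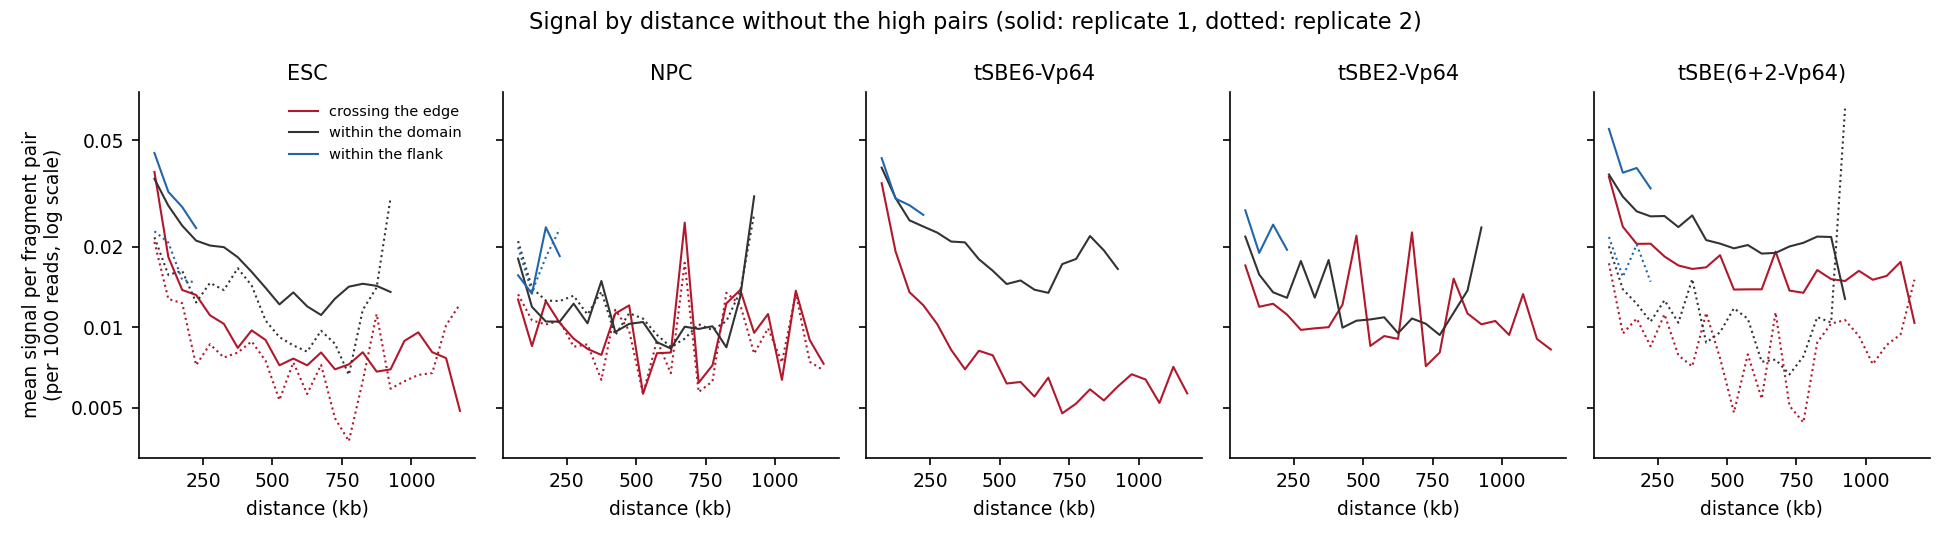
Mean signal per fragment pair (per 1000, log axis) against distance in kb without the high pairs, for pairs that cross the edge, pairs within the domain and pairs within the flank, with 1 panel per group (solid for replicate 1, dotted for replicate 2). In ESC and tSBE6-Vp64 the crossing line runs below the domain line at nearly all distances, and in NPC and tSBE2-Vp64 the lines meet or cross in several classes.

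The position of the edge was checked by scanning the region for the signal of pairs 50 to 250 kb apart that span each of 64 positions, as a ratio to the signal their distances predict. With the high pairs left out, the ratio at the edge was 0.737 and 0.783 in ESC, 0.919 and 0.827 in NPC, 0.648 in tSBE6-Vp64, 0.841 in tSBE2-Vp64, and 0.818 and 0.805 in tSBE(6+2-Vp64). The edge lay below the median of its own scan in 7 of 8 replicates, ranking from 11 to 22 of 64 from the lowest, and above it in NPC replicate 1, at rank 41 (median 0.878). The medians themselves ranged from 0.878 to 1.02. The minimum of the Lmbr1 side was at the edge itself only in ESC replicate 2. In the others it lay from 20 to 120 kb inside the domain, except in NPC replicate 1, where it was 320 kb inside (0.785). The dip at the Shh side, 940 to 980 kb away, was the deeper in every replicate, from 0.371 in ESC replicate 1 to 0.650 in NPC replicate 1. With all pairs the ratio at the edge ranged from 0.774 in ESC replicate 1 to 5.68 in NPC replicate 1, and the Lmbr1 with Mnx1 pairs span it. It then ranked 18 and 25 of 64 from the lowest in ESC replicate 1 and tSBE6-Vp64, but from 60 to 64 in the other 6 replicates, where it was among the highest. In 5 of these 6 the edge was therefore below the median only with the high pairs left out, and in ESC replicate 1 and tSBE6-Vp64 it was below the median either way.

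**Figure D4:**
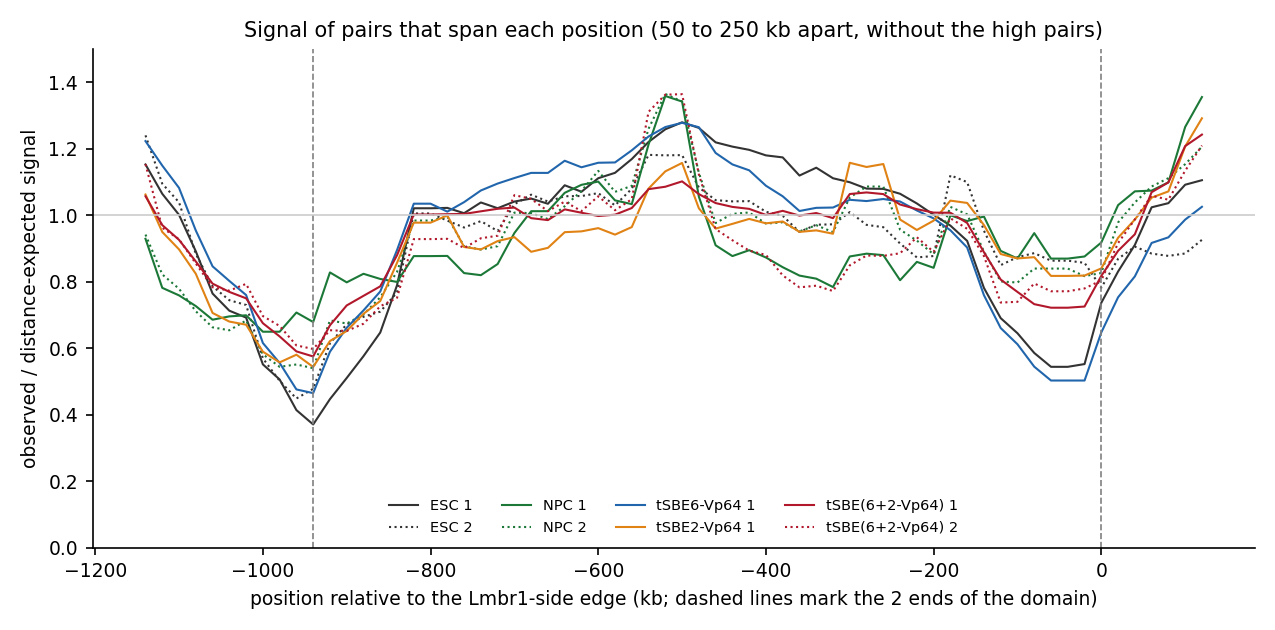
Observed over distance-expected signal of pairs 50 to 250 kb apart that span each position, without the high pairs, against position relative to the Lmbr1-side edge in kb, with 1 line per biological replicate (dotted for replicate 2). At the edge the lines lie between 0.648 and 0.919, and the lowest values fall at the Shh end of the domain.

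Of the 6 pairs of highest mean signal, 3 join Shh_491 (chr5:29806189-29807449, in the Mnx1 window) with fragments in the Lmbr1 window. The strongest was Shh_458 (chr5:29703904-29705290) with Shh_491, 102 kb apart. It had 0.438 and 24.8 in ESC, 103.7 and 89.8 in NPC, 5.26 in tSBE6-Vp64, 58.8 in tSBE2-Vp64, and 15.8 and 19.4 in tSBE(6+2-Vp64). NPC was above all other replicates, and the ESC replicates lay at the lowest value and the fourth highest. The mean of 22 neighbouring fragment pairs was far lower, but the high pairs, among them Shh_460 with Shh_491, were left out of these neighbours. Against that mean the pair stood 9.81 times higher in ESC replicate 1 and 8641 times higher in NPC replicate 1. Leaving Shh_460 with Shh_491 out of the neighbours raises both ratios. Shh_460 with Shh_491 (98.9 kb) had 0.197 and 17.4 in ESC, 13.4 and 18.0 in NPC, 0.583 in tSBE6-Vp64, 10.8 in tSBE2-Vp64, and 3.32 and 11.2 in tSBE(6+2-Vp64), so the groups overlapped. Shh_463 with Shh_491 (92.2 kb) had 0.113 and 1.02 in ESC against 8.38 and 5.86 in NPC, and between 0.208 and 2.80 in the other 4 replicates.

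The other 3 span longer distances. Shh_330 with Shh_529 (555 kb), whose flank end lies in the Ube3c window, had 0.0405 and 2.85 in ESC, 25.1 and 20.9 in NPC, 1.47 in tSBE6-Vp64, 21.1 in tSBE2-Vp64, and 5.73 and 5.72 in tSBE(6+2-Vp64). Shh_197 with Shh_504 (901 kb) had 0.0168 and 0.825 in ESC and 5.35 and 6.74 in NPC, with 0.110 in tSBE6-Vp64, 1.91 in tSBE2-Vp64, and 2.22 and 1.63 in tSBE(6+2-Vp64). Shh_158 with Shh_482 (955 kb), from near Shh to the Nom1 window, had 0.0178 and 0.0217 in ESC and 3.05 and 2.95 in NPC, with 0.315 in tSBE6-Vp64, 0.720 in tSBE2-Vp64, and 0.618 and 3.30 in tSBE(6+2-Vp64). The 6 pairs were picked by their mean over the 8 replicates, to which NPC gave the highest values for most of them, so that their order between groups is a description of the choice. Shh_158 with Shh_482 is the only one of the 6 in which the ESC replicates lay close together. Technical replicates differed as well: the 5.73 and 5.72 of Shh_330 with Shh_529 in tSBE(6+2-Vp64) average 3.38 with 8.08 and 8.06 with 3.37. For Shh_197 with Shh_504 the libraries were 1.19 and 9.50 in NPC replicate 1, and 0.0646 and 4.37 in tSBE(6+2-Vp64) replicate 1. For Shh_158 with Shh_482 they were 6.19 and 0.407 in tSBE(6+2-Vp64) replicate 2. Each of these 3 pairs was above its neighbours, from which high pairs were left out. The ratios were 4.11, 3.49 and 7.23 in ESC replicate 1 and 1072, 221 and 1096 in NPC replicate 1. In ESC replicate 1 their signals of 0.0405, 0.0168 and 0.0178 stood beside a mean crossing signal of 0.00931.

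**Figure D5:**
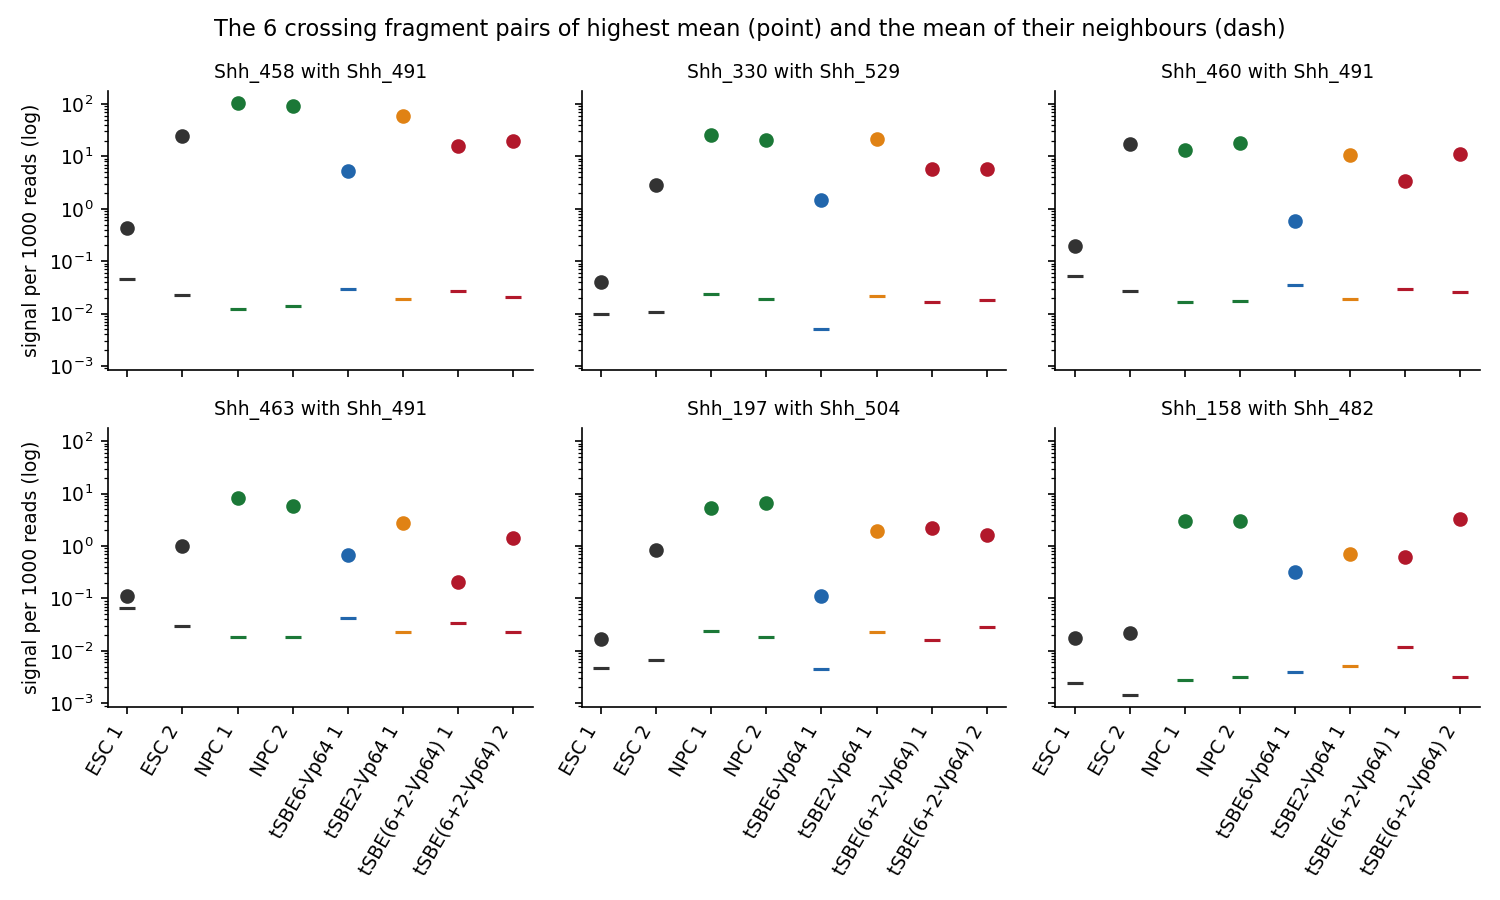
Signal per 1000 (log axis) of the 6 crossing fragment pairs of highest mean in each biological replicate (point) and the mean of the neighbouring fragment pairs in the same replicate (dash). High pairs were left out of the neighbours. The points stand above the dashes in all 8 replicates, by the least in ESC replicate 1.

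By fragment, the 3 domain ends with the highest mean crossing signal were Shh_458, Shh_460 (both in the Lmbr1 window) and Shh_330, with 1.296, 0.327 and 0.314 per pair over the 8 replicates. The 3 flank ends were Shh_491 (0.554), Shh_529 (0.117) and Shh_504 (0.0343). All 6 owe their rank to a high pair. Their means without the high pairs were 0.0144, 0.0259, 0.0187, 0.0102, 0.00671 and 0.00935 in the same order, beside a median of 0.00868 over domain ends and 0.00946 over flank ends.

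Named elements were compared as windows of 20 kb to either side of approximate mm9 positions, which gave 91 element pairs, 21 of them crossing. Shh with Mnx1 averaged 0.0170 and 0.0169 in ESC, 0.00828 and 0.00979 in NPC, 0.0122 in tSBE6-Vp64, 0.0181 in tSBE2-Vp64, and 0.0159 and 0.0104 in tSBE(6+2-Vp64). NPC thus lay below ESC, by a log2 of -0.74 (SE 0.59), which did not pass limma (adjusted p = 0.993). Of 22 alternatives it turned in 1, to 1.59 with 40-kb windows, and passed in 1, at -1.44 (adjusted p = 0.00856 by limma) when scaled over pairs beyond 50 kb. Shh with Nom1 had 0.00750 and 0.00446 in ESC against 0.00534 and 0.00477 in NPC, and Shh with Ube3c 0.00802 and 0.0133 against 0.0105 and 0.00657, so both overlapped. ZRS with Mnx1 overlapped as well, with 0.0117 and 0.00593 in ESC and 0.00593 and 0.00929 in NPC. In the 3 Vp64 groups, the log2 differences of these 4 pairs from ESC lay between -0.49 and 0.45.

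Lmbr1 with Mnx1, which holds the 3 strongest short pairs, had 0.0665 and 1.46 in ESC, 4.19 and 3.80 in NPC, 0.248 in tSBE6-Vp64, 2.43 in tSBE2-Vp64, and 0.671 and 1.08 in tSBE(6+2-Vp64). NPC and tSBE2-Vp64 lay above both ESC replicates, and the other 2 groups between them. The log2 difference was 3.65 (SE 2.53) in NPC, -0.35 (SE 3.10) in tSBE6-Vp64, 2.93 (SE 3.10) in tSBE2-Vp64 and 1.42 (SE 2.53) in tSBE(6+2-Vp64), none passing limma (adjusted p = 0.993, 0.998, 0.996 and 0.964). With the high pairs left out all 4 turned, to -1.002 in NPC, 0.04 in tSBE6-Vp64, -0.75 in tSBE2-Vp64 and -0.38 in tSBE(6+2-Vp64). With no trend in the limma fit, the difference passed in NPC and in tSBE2-Vp64. The ESC replicate used decided the size: without ESC replicate 2 it passed in NPC with 5.85, in tSBE2-Vp64 with 5.13 and in tSBE(6+2-Vp64) with 3.62, and was 1.85 in tSBE6-Vp64. Without ESC replicate 1 none passed, with 1.45 in NPC, 0.73 in tSBE2-Vp64, -0.78 in tSBE(6+2-Vp64) and -2.55 in tSBE6-Vp64. Lmbr1 with Nom1, a shorter pair with no high pair, had 0.0385 and 0.0301 in ESC and 0.0102 and 0.0145 in NPC, a log2 of -1.30 (SE 0.61, adjusted p = 0.762 by limma). Its values were 0.0430 in tSBE6-Vp64, 0.0165 in tSBE2-Vp64, and 0.0410 and 0.0205 in tSBE(6+2-Vp64), so NPC and tSBE2-Vp64 lay below both ESC replicates.

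By limma 0 of the 21 crossing element pairs passed an adjusted p of 0.05 in each of the 4 comparisons, beside 1.1% of the 91 pairs in NPC and 0% in the other 3. At an unadjusted p under 0.05 there was 1 crossing pair in NPC (Lmbr1 with Nom1), beside 4.4% of all pairs, and 0 in the others, beside 0%, 0% and 3.3%. Of the 21 crossing pairs, 9 were higher in NPC than in ESC, 12 in tSBE6-Vp64, 11 in tSBE2-Vp64 and 17 in tSBE(6+2-Vp64), against 39, 65, 47 and 65 of the 91. The medians were -0.12, 0.02, 0.02 and 0.20 for the crossing pairs and -0.05, 0.21, 0.02 and 0.17 for all.

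Across 20-kb bins, 3439 bin pairs were tested and 665 of them cross the edge. By limma 1 crossing bin pair rose and 0 fell in NPC, beside 0.116% of all bin pairs, and 1 rose and 0 fell in tSBE(6+2-Vp64), beside 0.0582%. In tSBE6-Vp64 and tSBE2-Vp64 0 passed, beside 0% in each. At an unadjusted p under 0.05, 31 crossing bin pairs were higher and 13 lower in NPC (6.62% of 665, beside 8.03% of all). In tSBE6-Vp64 4 were higher and 5 lower (1.35%, beside 1.13%), and in tSBE2-Vp64 35 were higher and 6 lower (6.17%, beside 3.75%). In tSBE(6+2-Vp64) 40 were higher and 0 lower (6.02%, beside 3.14%). The median log2 difference over crossing bin pairs was 0.01 in NPC, 0.10 in tSBE6-Vp64, 0.36 in tSBE2-Vp64 and 0.50 in tSBE(6+2-Vp64), and over all bin pairs -0.26, 0.46, -0.01 and 0.27. The 4 comparisons share the ESC replicates.

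The bin pair that passed was the same in both comparisons, the bins starting at 28820001 and 29760001, which hold 4 fragment pairs. Its mean was 0.00655 and 0.00542 in ESC, 0.764 and 0.745 in NPC, 0.0822 in tSBE6-Vp64, 0.182 in tSBE2-Vp64, and 0.159 and 0.831 in tSBE(6+2-Vp64). All 6 other replicates lay above both ESC replicates. The log2 difference was 6.81 in NPC (SE 0.76, adjusted p = 0.00316 by limma), 5.76 in tSBE(6+2-Vp64) (SE 0.76, adjusted p = 0.0176), 4.76 in tSBE2-Vp64 (SE 0.93, adjusted p = 0.132) and 3.62 in tSBE6-Vp64 (SE 0.93, adjusted p = 1.00). The pair Shh_158 with Shh_482 held 99.9% and 99.1% of its signal in NPC and 97.5% and 99.3% in tSBE(6+2-Vp64). Without the high pairs the log2 difference was 1.20 in NPC and 2.14 in tSBE(6+2-Vp64), and neither passed. Leaving out tSBE(6+2-Vp64) replicate 1 or replicate 2 also ended both calls, while the log2 difference over all replicates left out in turn stayed at 6.65 to 6.95 in NPC and 4.50 to 6.99 in tSBE(6+2-Vp64).

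The remaining bin pairs with the smallest p did not pass. In tSBE2-Vp64, bins 29200001 and 30000001 had 0.153 against 0.00811 and 0.000952 in the ESC replicates, a log2 of 5.30 (SE 0.99) with an adjusted p of 0.108 by limma, and 98.7% of the value came from Shh_275 with Shh_555. Bins 29680001 and 29920001, with 1 fragment pair, had 4.16e-05 against 0.0677 and 0.0364 (log2 -5.95, SE 1.11, adjusted p = 0.108). In tSBE6-Vp64, bins 29380001 and 29820001 had 1.51e-05 against 0.00989 and 0.0303 in the ESC replicates, a log2 of -4.53 (SE 1.03) with an adjusted p of 1.00 by limma, and bins 28840001 and 29940001 had 0.00150 against 0.0193 and 0.0497 (log2 -3.81, SE 0.88, adjusted p = 1.00). The lower values of 4.16e-05 and 1.51e-05 lie under the pseudocount of 0.000774, which bounds those sizes.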

How the data were processed

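Each file held a fragment-by-fragment 5C matrix whose values the authors had normalised before deposit (unit: signal). Fragment names carry mm9 coordinates, and mm9 is the build in the submitters' processing notes; the aligner is not given in the sources used here. Each library was rescaled to 1000 over the 341 shared fragments, and technical replicates were averaged. Summary ratios used 50-kb distance classes with at least 20 pairs, and two-sided exact permutation tests over biological replicates. Bin and element pairs were fitted on log2(value + pseudocount) with limma 3.58.1 (R 4.3.3, trend, Benjamini-Hochberg over the whole table); pseudocounts were 0.000774 and 0.0028, the 5th percentile of values above 0. Bin pairs needed values above 0 in at least 2 replicates. Pairs within 1 bin were left out after both versions had been fitted; keeping them is an added alternative. The spread of a pair rests on 3 residual degrees of freedom, and groups of 1 replicate borrow it. With the spread that limma shares over pairs, the total was 12.3 for bin pairs and 273 for element pairs. The SE of an element pair thus comes almost wholly from the trend over all element pairs, not from its own replicates. High pairs are the 21 pairs over 50 kb apart that exceed 0.5% of a library, 6 of them crossing.

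Named were Shh with Nom1, Mnx1 and Ube3c, ZRS and Lmbr1 with Mnx1, any other crossing element pair passing, up to 5 crossing bin pairs per direction that passed or else the 3 of smallest p, the 6 strongest fragment pairs, and the 3 strongest fragments per side. Lmbr1 with Nom1 was added after its values were seen. Members, elements and alternatives were chosen with earlier results of these data known. Element positions are approximate, from knowledge of the locus. The test was tried on simulated data. Tables used python 3.11.15, numpy 2.4.6 and pandas 2.3.3.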

Additional observations from a re-analysis of the deposited data

Results flagged for a closer look

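Among the 4 libraries of tSBE(6+2-Vp64), 15 measures of the crossing pairs were examined and 3 had a library far from the others (gap over range above Dixon's 95% value), where chance gives about 1 in 20. The first technical replicate of replicate 1 had a median crossing signal of 0.0169, against 0, 0 and 0.00163, and its strongest pair held 4.99% of its crossing signal, against 19.4% to 21.9%. The first technical replicate of replicate 2 had 6.19 for Shh_158 with Shh_482, against 0.407 to 0.623. That pair carries the bin pair that passed in tSBE(6+2-Vp64). NPC had only 3 distinct libraries and was not examined in this way.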

How the results depend on the processing

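The number of crossing bin pairs passing limma was not stable. Leaving out a replicate gave 0 to 16 in NPC, 0 to 13 in tSBE(6+2-Vp64), 0 to 15 in tSBE2-Vp64 and 0 to 12 in tSBE6-Vp64. With a replicate block it was 11 in NPC, 4 in tSBE(6+2-Vp64) and 6 in tSBE2-Vp64; same-numbered replicates deviated together in 1 of 3 pairs of groups (r = 0.21 for ESC with tSBE(6+2-Vp64), -0.03 and -0.01 for NPC with each), so the numbers were not taken as pairs. In NPC and tSBE(6+2-Vp64) it was 0 without the high pairs, with values capped, scaled over pairs beyond 50 kb, with the deepest library only, with no trend and with 10-kb bins, and in tSBE(6+2-Vp64) also with technical replicates as columns or the 1st percentile as pseudocount. In NPC it was 8 with the 25th percentile, 7 with 40-kb bins and 9 with values above 0 in all replicates. The last 2 gave 6 and 4 in tSBE(6+2-Vp64), and the same 3 gave 2, 6 and 6 in tSBE2-Vp64. Keeping pairs within 1 bin, added after the data were seen, left the counts at 1 in NPC and tSBE(6+2-Vp64) and 0 in tSBE6-Vp64 and tSBE2-Vp64. Crossing element pairs passing were 0 to 1 without a replicate in NPC, tSBE2-Vp64 and tSBE(6+2-Vp64), 4 in NPC when scaled beyond 50 kb, 1 in NPC with 40-kb windows, and 1 in NPC and in tSBE2-Vp64 with no trend. Shh with Nom1 in NPC turned to 2.04, passing, with 40-kb windows.

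The ratio to the domain kept its direction in NPC, tSBE2-Vp64 and tSBE(6+2-Vp64) under all alternatives run, but shrank to 0.074, 0.15 and 0.18 when the share of pairs above 0 replaced the mean, and turned in tSBE6-Vp64 (0.14) only there. The ratio to the flank turned in NPC (-0.062 without the high pairs, -0.23 with the edge 20 kb nearer the domain, -0.045 by pairs above 0), in tSBE2-Vp64 (-0.071 and -0.23 for the first 2) and in tSBE(6+2-Vp64) (-0.014 without the high pairs). By pairs above 0 it was 0.12 in tSBE6-Vp64. Leaving out a replicate gave -0.35 to 0.85 in tSBE(6+2-Vp64) and -1.02 to 0.18 in tSBE6-Vp64. The crossing share turned in NPC with the edge 20 kb nearer the domain (-0.78), and ranged from -2.43 to 4.87 in tSBE(6+2-Vp64) without a replicate. The cause of these changes was not tested. A count test on recovered reads was not run, since the values are normalised signal.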

Other observations

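The crossing pairs were also divided by distance from the edge, without the high pairs and after the values were seen. Pairs within 100 kb of the edge on both sides (204) averaged 0.0213 and 0.0120 in ESC against 0.00757 and 0.00947 in NPC, with 0.0190 in tSBE6-Vp64, 0.0117 in tSBE2-Vp64, and 0.0231 and 0.0103 in tSBE(6+2-Vp64). Both NPC replicates were the lowest of the 8. Pairs from 300 to 400 kb inside the domain to 100 to 200 kb beyond the edge (195) averaged 0.00960 and 0.0119 in ESC against 0.0191 and 0.0169 in NPC, with 0.00790 in tSBE6-Vp64, 0.0312 in tSBE2-Vp64, and 0.0249 and 0.0172 in tSBE(6+2-Vp64). The latter include Shh_354 with Shh_517, at 0.0149 and 0.492 in ESC, 1.54 and 1.03 in NPC and 3.38 in tSBE2-Vp64. Neither difference was tested.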
